A study of Mus musculus with 24 samples.

Results

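The sarcomere genes of skeletal muscle are followed here as a group of 32 genes through 24 RNA sequencing libraries of mouse mammary tumours, a tissue that does not itself make muscle fibres. The 32 genes were named by symbol, by a rule that uses no measured value, out of 46318 gene IDs in the count files, and all 32 were found. They are 10 filament genes, 6 troponins, 6 genes of the Z-disc and its intermediate filament, 6 genes of calcium handling and 4 genes of energy supply. The tumours came from MMTV-PyMT mice, in which the mouse mammary tumour virus promoter drives the polyoma middle T oncogene in mammary epithelium, and they were collected at 2000 mm3. All 24 carry that transgene: 12 libraries are labelled KO for Nr0b2 (SHP KO, from the NR0B2-/- PyMT+ colony) and 12 are labelled WT (SHP WT, from NR0B2+/+ PyMT+). Nr0b2 encodes the orphan nuclear receptor SHP. The labels give no age, no batch, and no statement that each tumour came from a separate animal, and p-values here reflect only how these 24 libraries scatter, which may be technical in part.

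In a sarcomere, thick filaments of myosin pull on thin filaments of actin, which are anchored at the Z-disc, while titin and nebulin act as molecular springs and rulers. Calcium released from the sarcoplasmic reticulum through the ryanodine receptor binds troponin C and lets the filaments engage, and the calcium pump then clears it. Fibres differ in the myosin heavy chain they use, with Myh7 in slow fibres, Myh2 in type 2A, Myh1 in type 2X and Myh4 in type 2B, the fastest, and most troponin and pump genes have a fast and a slow version. The mammary fat pads of the mouse lie under the skin, close to a thin skin muscle and to muscles of the body wall.

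Promoter sequences are shown for 5 genes to set genes that moved closely with Acta1 beside a slow troponin that did not. They are the 250 bases before the RefSeq start in GRCm38.p6, an older build than the GRCm39 of the count files, written 5′ to 3′ on the gene's strand. Capitals mark the letters CANNTG (the E-box, bound by MyoD family factors), TATAAA, a MEF2 site or a CArG box (the site of serum response factor), searched on both strands and allowed to overlap.
Acta1, skeletal alpha-actin (chr8:123894776-123895025, minus strand): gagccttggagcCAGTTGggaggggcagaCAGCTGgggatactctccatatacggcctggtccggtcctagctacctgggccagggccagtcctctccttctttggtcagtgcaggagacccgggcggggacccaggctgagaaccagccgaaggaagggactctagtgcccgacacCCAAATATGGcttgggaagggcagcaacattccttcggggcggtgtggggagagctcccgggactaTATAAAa
Ckm, muscle creatine kinase (chr7:19410844-19411093, plus strand): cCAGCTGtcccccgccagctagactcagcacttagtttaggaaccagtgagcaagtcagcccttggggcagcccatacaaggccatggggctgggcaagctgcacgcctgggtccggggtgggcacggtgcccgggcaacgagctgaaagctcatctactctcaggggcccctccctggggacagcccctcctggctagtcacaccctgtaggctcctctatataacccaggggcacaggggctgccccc
Myh4, type 2B myosin heavy chain (chr11:67237562-67237811, plus strand): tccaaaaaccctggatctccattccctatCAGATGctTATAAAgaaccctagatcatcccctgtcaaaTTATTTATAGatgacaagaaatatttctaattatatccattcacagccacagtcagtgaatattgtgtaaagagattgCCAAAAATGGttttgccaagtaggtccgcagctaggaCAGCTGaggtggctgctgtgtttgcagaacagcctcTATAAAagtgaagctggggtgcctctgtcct
Tnnc2, fast troponin C (chr2:164779735-164779984, minus strand): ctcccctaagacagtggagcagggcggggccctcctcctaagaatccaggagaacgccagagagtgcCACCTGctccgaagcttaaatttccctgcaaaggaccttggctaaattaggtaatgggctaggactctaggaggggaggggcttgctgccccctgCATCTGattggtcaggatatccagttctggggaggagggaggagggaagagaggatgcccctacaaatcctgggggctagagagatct
Tnnc1, slow and cardiac troponin C (chr14:31208062-31208311, plus strand): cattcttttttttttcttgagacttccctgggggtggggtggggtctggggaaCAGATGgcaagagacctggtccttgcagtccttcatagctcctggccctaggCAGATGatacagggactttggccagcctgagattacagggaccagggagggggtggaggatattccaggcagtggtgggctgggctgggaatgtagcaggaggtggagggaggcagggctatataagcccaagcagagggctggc

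A RefSeq promoter was matched for 24 of the 32 genes, with 28 start sites between them. An E-box was in 24 of the 28 (85.7%), against 66.2% of 32851 promoters of the same length. TATAAA was in 5 (17.9%, against 12.4%), those of Acta1, Myh1, Myh4, Myl1 and Tnnt1. A MEF2 site was in 4 (14.3%, against 2.92%), those of Myh1, Myh4, Pvalb and Ttn. A CArG box was in 2 (7.14%, against 1.47%), those of Acta1 and Myh4. The Tnnc2 and Tnnc1 promoters each hold 2 E-boxes and none of the other 3 motifs.

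Library totals ran from 18789250 to 38022182 reads counted to genes, and levels are given as CPM (reads of a gene per 1000000 counted reads) after TMM scaling. The label of the targeted gene was checked first: Nr0b2 went against it, with 182 reads over the 12 libraries labelled KO, at least 1 in each, and 1 read over those labelled WT, 11 of which had 0. Directions below are therefore those of the labels, with no loss of Nr0b2 measured in the libraries labelled KO. All 24 libraries held epithelial RNA, with the epithelial gene Epcam between 795 and 1301 CPM. Epcam does not tell tumour from other epithelium, and the tumour label itself was not tested. In bulk tissue, fewer cells of a type and less RNA per cell cannot be told apart.

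Muscle RNA was present in most of the tumours, at levels that differed by orders of magnitude. Summed over the 32 genes, the level was 39.8 CPM at the lowest (WT 24) and 9912 CPM at the highest (KO 11). A library was said to carry muscle where at least 24 of the 32 genes reached 1 CPM. By that rule 16 libraries carried it, 10 of the 12 labelled KO (KO 1 to KO 8, KO 11 and KO 12) and 6 of the 12 labelled WT (WT 13, 15, 16, 17, 20 and 22). The other 8 libraries (KO 9 and 10, and WT 14, 18, 19, 21, 23 and 24) had between 3 and 17 of the genes at that level. To carry no muscle means here only that the rule was not met, not that muscle RNA was absent. Acta1, for example, had 167 reads in WT 23, 116 in WT 18, 99 in WT 19 and 63 in KO 9. With 5 CPM asked of each gene, 5 libraries remained, KO 3, KO 8, KO 11, WT 13 and WT 16.

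**Figure D1:**
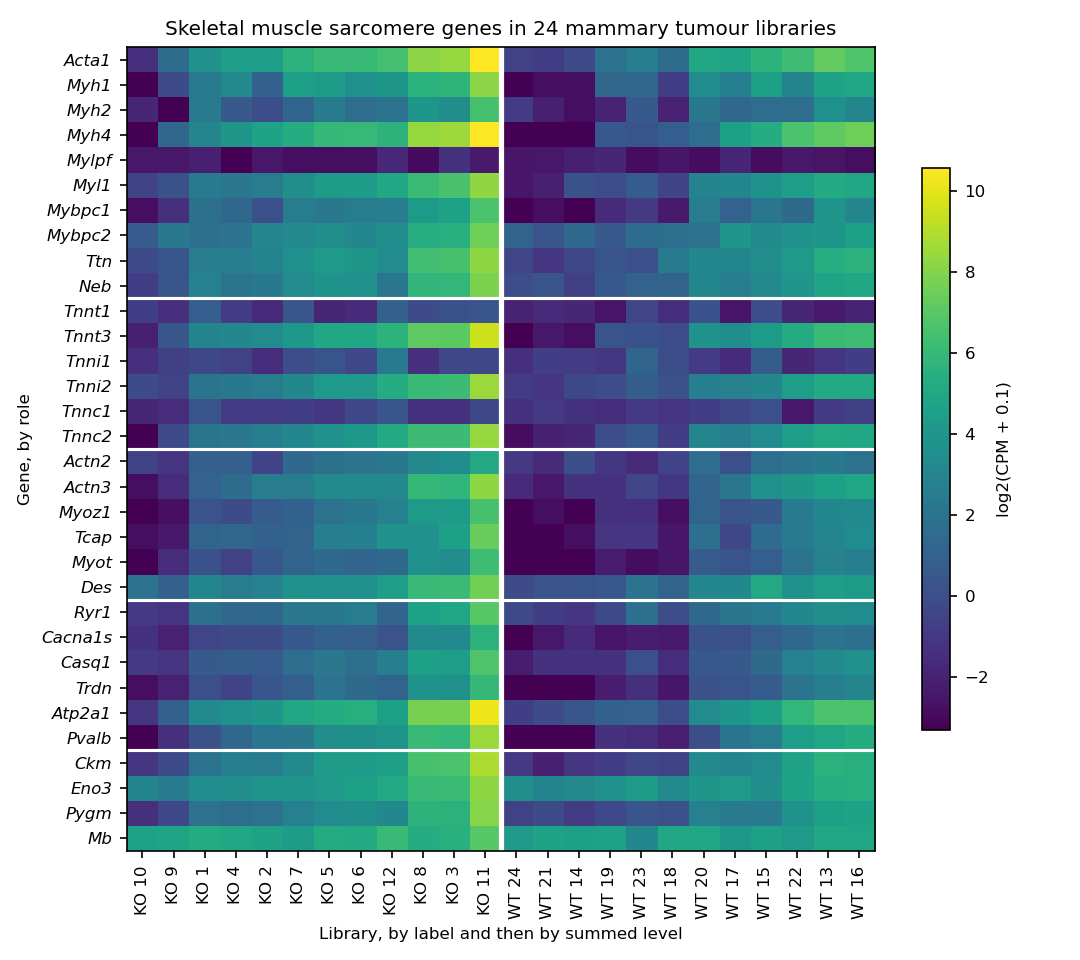
Level of the 32 genes (rows, grouped by role with white lines: filaments, troponins, Z-disc, calcium, energy) in the 24 libraries (columns, KO on the left and WT on the right, each ordered by summed level), as log2 of CPM plus 0.1. Most rows brighten together from left to right within each label and are brightest in KO 11, while Mylpf, Tnnt1, Tnni1 and Tnnc1 stay dark throughout and Mb and Eno3 are never dark.

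In the libraries labelled KO the summed level had a lowest value of 44.9 CPM, a median of 399.8 and a highest of 9912. In those labelled WT the lowest was 39.8 CPM, the median 142.9 and the highest 1012. The 2 ranges overlapped over nearly all of the WT range, and 3 KO libraries lay above every WT library: KO 11, KO 3 (2199 CPM) and KO 8 (2030 CPM). KO 11 alone held 294276 of the 549996 reads of these genes (53.5%) and 65.0% of those in the KO libraries. In KO 11 the genes took 1.01% of all counted reads, or 10128 per 1000000 reads (95% exact binomial interval 10092 to 10165, counting error only). KO 11, KO 3 and KO 8 together held 87.6% of the KO libraries' reads of these genes. Of the 32 genes, 28 were highest in KO 11, and 25 had KO 11, KO 3 and KO 8 as their top 3 libraries.

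Of the filament genes, Acta1 encodes skeletal alpha-actin, the thin filament itself. Its level was 0.27 CPM at the lowest, 56.7 at the median and 1541 at the highest in the libraries labelled KO. In those labelled WT it was 0.49, 17.1 and 153 CPM. The groups overlapped except for KO 11, KO 3 and KO 8 above the WT range and 1 KO library, KO 10, below it, and 9 of 12 KO libraries lay above the WT median. Divided by counted exon length, Acta1 was the highest of the 32 in KO 11, at 981 CPM per kb, and titin (Ttn), whose counted exons span 117640 bases, was at 2.52 CPM per kb.

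The 3 fast myosin heavy chain genes lie in tandem on chromosome 11 of GRCm39, Myh2 at 67061853 to 67088343, Myh1 at 67090922 to 67115401 and Myh4 at 67128638 to 67151273. They are near-identical over long stretches, the recorded counting leaves out multi-mapped reads, and the split between the genes is uncertain. Myh4 was at 0, 45.1 and 1492 CPM (lowest, median, highest) in the KO libraries and at 0, 2.34 and 180 CPM in the WT libraries. Myh1 was at 0, 14.4 and 290 CPM against 0, 4.33 and 30.7 CPM. Myh2 was at 0, 3.44 and 91.9 CPM against 0.044, 1.93 and 12.8 CPM. For all 3 genes the highest library was KO 11 and the lowest were libraries that carried no muscle by the rule. Mybpc1, a myosin-binding protein of the thick filament, had medians of 5.13 and 1.18 CPM. The fast Mybpc2 had medians of 9.06 and 3.44 CPM, and it was at 1 CPM or more in all 24 libraries. The essential light chain Myl1 had medians of 15.5 and 4.43 CPM, Ttn 11.5 and 6.69 CPM, and nebulin (Neb) 8.65 and 4.12 CPM, KO first in each case.

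Mylpf, the fast regulatory light chain (chromosome 7, 126808071 to 126813459, plus strand, GRCm39), was all but missing from the counts. It ranged from 0 to 0.31 CPM in the KO libraries and from 0.036 to 0.18 CPM in the WT libraries, and in KO 11 it was the lowest of the 32 genes per kb, at 0.13 CPM per kb. On the annotation in the count files, 599 of its 808 counted bases (74.1%) are shared with exons of Septin1 on the opposite strand, and the recorded counting command sets no strand, so reads there cannot be assigned to either gene. Septin1 itself was highest in KO 11 (22.4 CPM against a median of 3.45 over the 24 libraries). KO 10, which carried no muscle by the rule, was next at 13.2 CPM. The Mylpf count is therefore uncertain as a measure of this light chain. Shorter shares of counted exon overlapped other genes in Ckm (31.9%, with A930016O22Rik) and Eno3 (23.03%, with Pfn1, itself at 256 to 808 CPM).

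The adult myosin genes gave the fibre type. Over the reads of Myh4, Myh1, Myh2 and Myh7, 20 libraries had at least 50 reads, and KO 10, WT 14, WT 21 and WT 24 had fewer. The type 2B gene Myh4 took the largest share in 17 of the 20, with a median of 72.2%. It ran from 16.2% in WT 20 to 90.7% in WT 22 and KO 2. In KO 11 the shares were 79.6% for Myh4 (95% exact binomial interval 79.3 to 79.9), 15.5% for Myh1 and 4.9% for Myh2. The type 2X gene Myh1 led in 3 libraries, all labelled WT: WT 19 (62.0% of 100 reads), WT 20 (57.9% of 513) and WT 23 (47.8% of 134). WT 20 was the only one of these 3 that carried muscle by the rule. The perinatal myosin gene Myh8, left out of these shares, had 834 reads in WT 20, more than the 513 of the 4 adult genes together. The Myh4 interval of WT 20, 13.1 to 19.7%, lay below that of every other of the 16 muscle-carrying libraries. The nearest was KO 1 (42.5%, interval 38.4 to 46.6).

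**Figure D2:**
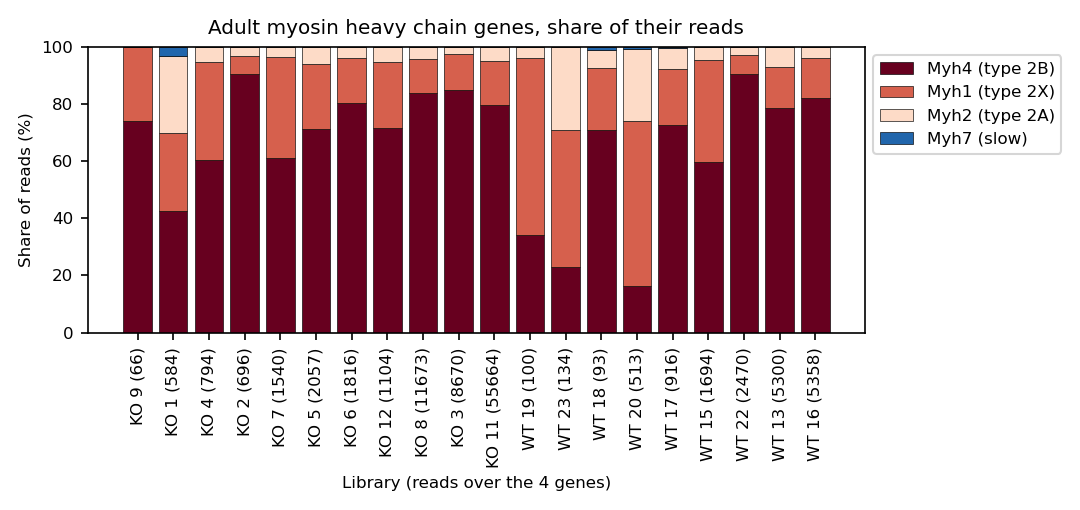
Share (%) of the reads of Myh4, Myh1, Myh2 and Myh7 in the 20 libraries with at least 50 such reads, KO libraries first and then WT, each ordered by summed level of the 32 genes, with the number of reads in brackets. Myh4 fills most of 17 bars, Myh1 leads in WT 19, WT 20 and WT 23, and Myh7 is visible chiefly in KO 1.

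Slow fibre myosin was nearly absent. Myh7 had 39 reads in all 24 libraries and 0 reads in 14 of them, and its highest level was 0.62 CPM, in KO 1. There it made up 19 of the 584 myosin reads (3.3%, interval 2.0 to 5.0). KO 1 also had the largest Myh2 share among the KO libraries, 26.9%. In KO 11 Myh7 made 5 of 55664 reads. Dividing each gene's reads by its counted length moved no share by more than 0.28 percentage points.

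Fast troponins, which hold the thin filament switched off until calcium arrives, followed the muscle level. Tnnt3, fast troponin T, was at 0.13, 23.9 and 739 CPM (lowest, median, highest) in the KO libraries and at 0, 6.26 and 77.8 CPM in the WT libraries. Tnni2, fast troponin I, was at 0.61, 13.2 and 355 CPM against 0.36, 3.96 and 36.8 CPM. Tnnc2, fast troponin C, was at 0, 10.9 and 332 CPM against 0.039, 3.70 and 34.9 CPM. In each of the 3 genes KO 11 was far above all others, and the ranges of the 2 labels overlapped.

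The slow forms were low everywhere and did not peak with the muscle. Tnnt1, slow troponin T, was at 0.17, 0.67 and 1.93 CPM in the KO libraries and at 0.07, 0.18 and 1.01 CPM in the WT libraries. Tnni1, slow troponin I, was at 0.26, 0.68 and 5.15 CPM against 0.18, 0.44 and 2.15 CPM. Tnnc1 was at 0.18, 0.43 and 1.17 CPM against 0.09, 0.40 and 0.97 CPM. KO 12 was the highest library for Tnnt1 and Tnni1 and KO 1 for Tnnc1. In KO 11, per kb, Tnnt3, Tnni2 and Tnnc2 stood at 632, 490 and 480 CPM per kb, and Tnnt1, Tnni1 and Tnnc1 at 0.79, 0.27 and 0.98 CPM per kb.

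The balance of fast to slow troponin was compared between the labels as log2 of reads per kb, with 0.5 reads added. For Tnni2 over Tnni1 it averaged 6.03 ± 2.57 (SD, n = 12) in the KO libraries and 4.57 ± 2.80 (SD, n = 12) in the WT libraries, a difference of 1.46 ± 1.10 (SE). A two-sided permutation test gave p = 0.195, or 0.292 adjusted over the 3 pairs, with 10 of 12 KO libraries above the WT median. For Tnnc2 over Tnnc1 the difference was 1.76 ± 1.31 (SE; permutation p = 0.193, adjusted 0.292) and for Tnnt3 over Tnnt1 it was 1.51 ± 1.49 (SE; permutation p = 0.321, adjusted 0.321). None of the 3 differences exceeded the spread between libraries. All 24 libraries were used, including the 8 that carried no muscle by the rule, where counts could be near 0. In WT 24, for example, Tnnt3 had 0 reads and Tnnt1 had 4. Fast forms followed the muscle level and slow forms did not, so the ratio also varies with muscle content.

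The Z-disc genes tracked the filaments. The cross-linkers Actn2 and Actn3 (the second a marker of fast fibres) were at 0.33, 2.98 and 33.4 CPM and at 0.045, 7.55 and 297 CPM in the KO libraries. In the WT libraries they were at 0.22, 0.95 and 4.90 CPM and at 0.089, 1.45 and 29.6 CPM. Des encodes desmin, the intermediate filament that ties Z-discs together and is also made by smooth muscle. It was at 1.83, 12.7 and 199 CPM against 0.85, 6.25 and 33.2 CPM. Desmin was at 1 CPM or more in 7 of the 8 libraries that carried no muscle by the rule, while Actn2 and Actn3 were under 1 CPM in all 8. The titin cap Tcap and the Z-disc proteins Myoz1 and Myot had KO medians of 4.20, 2.80 and 2.16 CPM and WT medians of 0.52, 0.70 and 0.61 CPM.

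Calcium handling genes of fast fibres followed the muscle level. Atp2a1, the calcium pump of fast fibres, was at 0.36, 28.0 and 1214 CPM in the KO libraries and at 0.50, 6.22 and 102 CPM in the WT libraries. The calcium buffer Pvalb (parvalbumin), abundant in the fastest mouse fibres, was at 0, 7.93 and 360 CPM against 0, 0.58 and 38.8 CPM. In WT 20, where Myh1 led among the 4 adult myosin genes, Pvalb was at 0.87 CPM. The ryanodine receptor Ryr1 was at 0.33, 3.92 and 128 CPM against 0.35, 2.85 and 12.2 CPM. Its voltage sensor Cacna1s, the calcium store protein Casq1 and the anchor Trdn had KO medians of 1.22, 3.20 and 1.91 CPM and WT medians of 0.59, 1.12 and 0.63 CPM. Slow counterparts were also counted: Casq2, the slow and cardiac calcium store protein, was highest in KO 4 (14.4 CPM) and WT 20 (9.93 CPM), where Casq1 was at 1.59 and 1.27 CPM. In KO 11 Casq2 was at 4.11 CPM and Casq1 at 107 CPM. The slow pump Atp2a2, which other cell types also make, lay between 222 and 464 CPM in all 24 libraries.

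The energy genes split in 2 by their level in the libraries that did not meet the muscle rule. Ckm, which buffers ATP in muscle, and Pygm, which breaks down muscle glycogen, behaved like the filament genes. Ckm was at 0.36, 14.5 and 470 CPM in the KO libraries and at 0.13, 4.38 and 46.5 CPM in the WT libraries, and Pygm had medians of 7.65 and 3.07 CPM. Mb (myoglobin, an oxygen-binding protein) and Eno3 (muscle enolase) were also counted where the muscle rule was not met. In those 8 libraries Mb lay between 8.76 and 32.6 CPM and Eno3 between 5.11 and 19.1 CPM. Mb, Eno3 and Mybpc2 were the 3 genes of the 32 at 1 CPM or more in all 8, and 14 of the 32 were under 1 CPM in all 8. KO 11 exceeded the median of those 8 libraries 5.01-fold for Mb, 31.8-fold for Eno3 and 824-fold for Acta1. Eno3 thus also rose with the muscle, with a Spearman correlation of 0.917 with Acta1 over the 24 libraries. Its overlap with Pfn1 (23.03% of counted exon) leaves its level where the rule was not met uncertain.

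How closely the genes moved together was described by the Spearman correlation with Acta1 in log2 CPM over the 24 libraries, which share their depth across all genes. It was above 0.9 for 25 of the other 31 genes, from 0.904 (Ryr1) to 0.996 (Tnnc2), and 0.892 for Myh2. The 5 others were Mb at 0.533, Tnnc1 at 0.323, Tnnt1 at 0.215, Tnni1 at 0.160 and Mylpf at -0.079. Among tested genes outside the 32, the 8 most like Acta1 were Eef1a2 (0.975), Klhl41 (0.967), Ckmt2 (0.964), Jsrp1 (0.963), Smpx (0.961), Xirp2 (0.959), Pgam2 (0.958) and Hjv (0.956). The SD of log2 CPM over the 24 libraries had a median of 2.58 across the 32 genes and 0.35 across all tested genes.

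**Figure D3:**
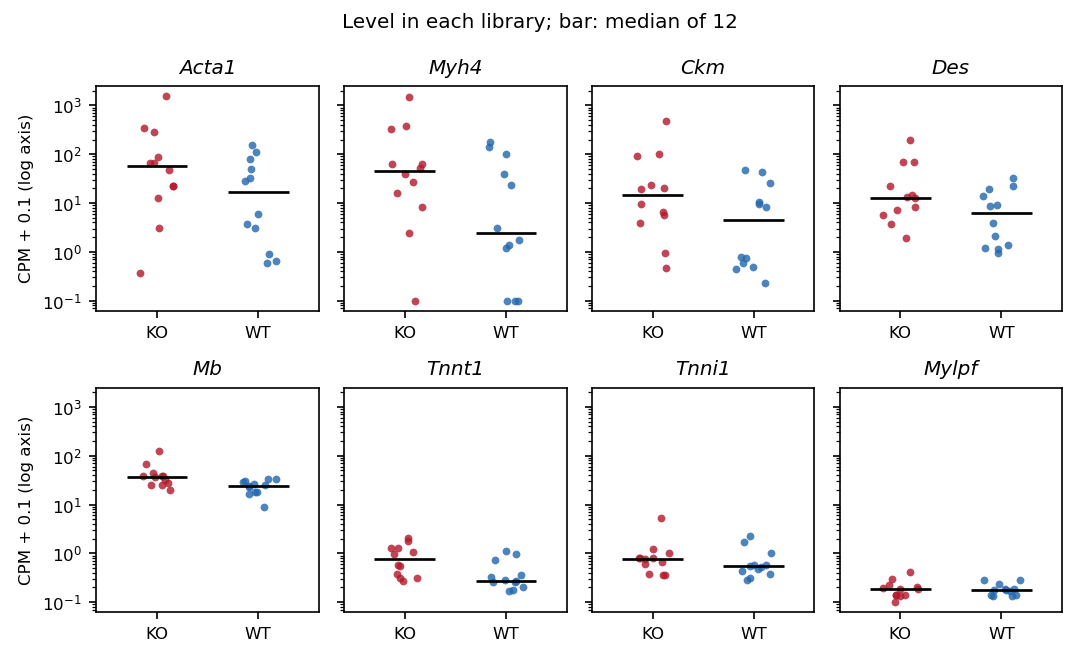
Level (CPM plus 0.1, log axis) of 8 genes in each library, by label, with 1 point per library and a bar at the median of 12. For Acta1, Myh4, Ckm and Des the points spread over several orders of magnitude and overlap between labels, for Mb they spread little, and for Tnnt1, Tnni1 and Mylpf nearly all lie near or under 1 CPM.

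The design asks whether loss of Nr0b2 changes gene expression in these tumours, and for the sarcomere genes no difference between the labels passed the test. The filter on low counts kept 30 of the 32 genes, and Mylpf and Tnnt1 failed it. Of the 30, 0 passed edgeR's quasi-likelihood test at an adjusted p of 0.05, against 0.316% of all 15820 genes tested (50 genes). By direction, 0.177% of tested genes were called with the higher level under KO and 0.139% with the lower. All 30 log2 differences (libraries labelled KO minus WT) were positive, with a median of 2.26, against 51.3% positive and a median of 0.01 over all tested genes. At an unadjusted p under 0.05 there were 27 of the 30, all higher under KO. Of all tested genes 18.9% had such a p in either direction and 10% with the higher level under KO. The genes moved together (correlation with Acta1 above 0.9 for 25 of the other 31). These counts are therefore not of 30 separate observations. DESeq2 called 1 of the 30, Mb, and limma voom with quality weights called 0, and at an unadjusted p under 0.05 they had 7 and 6. Over all 15820 tested genes DESeq2 called 418 and had 3098 at an unadjusted p under 0.05. For limma these counts were 69 and 2340. The authors' deposited table, which holds 28 of the 32, has all 28 positive and a lowest adjusted p of 0.115 among them.

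The size of this difference came chiefly from KO 11. Without that library the median log2 difference of the 30 genes was 0.98, all 30 were still positive, and 1 of them, Mb, kept an unadjusted p under 0.05. Of all 15882 genes tested in that fit, 2726 had an unadjusted p under 0.05, a larger share than 1 of 30. Leaving out any other single library left the median of the 30 or 31 genes that then passed the filter between 2.11 and 2.66. Without both KO 11 and KO 12 it was 1.00, with 29 of 30 positive.

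Acta1 differed by 2.42 ± 1.03 on the log2 scale (SE; edgeR adjusted p = 0.213), and by 1.16 without KO 11. Myh4, Myh1 and Myh2 differed by 2.33 ± 1.18, 2.14 ± 0.97 and 1.95 ± 0.92 (SE; edgeR adjusted p = 0.284, 0.237 and 0.254). Over the 9 tested filament genes the median was 2.12. The fast troponins Tnnt3, Tnni2 and Tnnc2 differed by 2.32 ± 1.07, 2.32 ± 0.93 and 2.31 ± 1.00 (SE; edgeR adjusted p = 0.243, 0.199 and 0.220). The slow Tnni1 and Tnnc1 differed by 0.54 ± 0.49 and 0.31 ± 0.32 (SE; edgeR adjusted p = 0.549 and 0.602), and Tnni1 turned to -0.12 without KO 12. Added to the fit, Tnnt1 differed by 1.26 ± 0.48 (SE; edgeR adjusted p = 0.179) and Mylpf by 0.07 ± 0.42 (SE; edgeR adjusted p = 0.940). None of these differences passed the test.

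The 6 Z-disc genes had a median log2 difference of 2.36, and Tcap had the largest of all 30, 2.89 ± 1.04 (SE; edgeR adjusted p = 0.167). Des differed by 1.88 ± 0.74 (SE; edgeR adjusted p = 0.194). The 6 calcium genes had a median of 2.34, with Atp2a1 at 2.51 ± 1.06, Pvalb at 2.40 ± 1.16 and Ryr1 at 2.05 ± 0.83 (SE; edgeR adjusted p = 0.213, 0.263 and 0.200). Of the 4 energy genes, Ckm differed by 2.38 ± 1.02 and Eno3 by 1.37 ± 0.56 (SE; edgeR adjusted p = 0.216 and 0.200).

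Myoglobin came nearest to a call. Mb (chromosome 15, 76899687 to 76934868, minus strand, GRCm39) was at 20.1, 37.4 and 125 CPM (lowest, median, highest) in the libraries labelled KO and at 8.76, 24.3 and 32.6 CPM in those labelled WT. The ranges overlapped, 11 of 12 KO libraries lay above the WT median, and KO 11 and KO 12 were the highest. The log2 difference was 0.87 ± 0.25 (SE; edgeR adjusted p = 0.110) and 0.59 without KO 11 (adjusted p = 0.163). DESeq2 gave 0.87 with an adjusted p of 0.0358 and kept the KO 11 count of Mb. It replaced that library's count as an outlier in 21 of the other 29 tested genes, and its median over the 30 was 0.94.

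**Figure D4:**
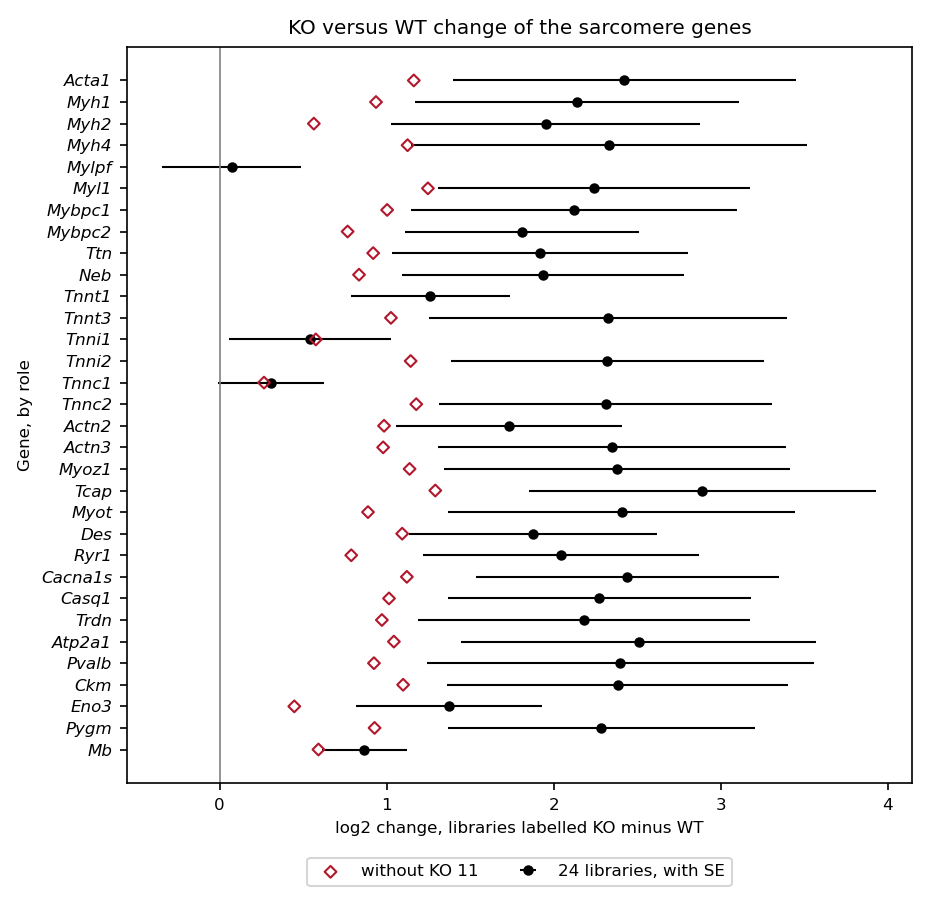
Difference between the libraries labelled KO and WT on the log2 scale for the 32 genes by role, from edgeR. Black points with bars are the estimate and SE over 24 libraries and open red diamonds the estimate without KO 11 for genes that passed the filter. Most points sit near 2 and most diamonds near 1, while Tnni1 and Tnnc1 move little.

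Of a wider list of 56 other skeletal muscle genes, 41 passed the filter, 39 had a positive log2 difference, and the median was 1.65. By edgeR 0 were called, against 0.316% of all tested genes, and 26 had an unadjusted p under 0.05, against 18.9%. Without KO 11 the median was 0.68, 30 of the 41 were positive and 4 had an unadjusted p under 0.05, against 2726 of all 15882 genes in that fit. DESeq2 and limma voom also called 0. Among 4 tested genes of a slow fibre list of 10, 2 were positive and the median was 0.11. The slow genes Myh7 and Myh7b were under 1 CPM in every library.

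Fat markers, like the sarcomere genes, were highest in KO 11. The summed level of 10 adipocyte markers was 114, 426 and 4853 CPM (lowest, median, highest) in the KO libraries, with KO 11 the highest of all 24. In the WT libraries it was 23.01, 219 and 1216 CPM, with WT 16 the highest. All 10 had a positive log2 difference between the labels, with a median of 1.21, 0 called by edgeR and 2 at an unadjusted p under 0.05. Over all tested genes 51.3% were positive, 0.316% were called and 18.9% had an unadjusted p under 0.05, so those 2 are near the general share. None of the 10 was under 1 CPM in every library. Across the 24 libraries Acta1 and the adipocyte gene Adipoq had r = 0.395 (permutation p = 0.0559, adjusted over 12 relations 0.482) and rho = 0.372 (permutation p = 0.0733). When the 2 libraries most distant from the Acta1 median were left out, r was 0.468. Within the labels r was 0.259 (KO) and 0.409 (WT). The part of fat, or of other tissue at the edge of a tumour, in the muscle signal was not tested.

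Markers of other muscle types were looked at in the same way. Of 10 cardiac markers, Myh6, Myl7, Nppa, Nppb, Ryr2 and Mybpc3 were under 1 CPM in every library. Tnni3, Tnnt2, Myl4 and Actc1 reached 1 CPM in at least 1 library. The summed level of the 10 ran from 5.92 to 26.2 CPM in the KO libraries, highest in KO 12. In the WT libraries it ran from 7.61 to 17.2 CPM. The summed smooth muscle and myoepithelial markers had medians of 612 CPM (KO) and 482 CPM (WT). They were highest in WT 18, at 4101 CPM, a library that carried no skeletal muscle by the rule. KO 4 (2368 CPM) and WT 20 (2217 CPM), which carried it, were next. Gene by gene the direction was the other way. Of the 11 of these markers that were tested, 1 had a positive log2 difference between the labels. The median was -0.70, and 0 were called by edgeR, against 0.316% of all tested genes. Among 14 genes of developing or regenerating muscle, Myf5, Mymk, Mymx and Chrng were under 1 CPM in every library. The summed level of the 14 was highest in KO 9 (134 CPM), and KO 11 ranked 20 of the 24 libraries (39.0 CPM). Ncam1 had the highest mean level of the 14, and 1 of the 14 passed the filter on low counts. In KO 9 both Myh3 and Myh8 had 0 reads. The sum therefore does not rank the libraries by developing or regenerating muscle. KO 11 was the highest library for Myf6 (7.48 CPM), Myod1 (2.22 CPM), Chrna1 (1.38 CPM) and Musk (1.01 CPM). These encode muscle transcription factors and proteins of the nerve-muscle synapse. Myh3 and Myog were highest in WT 15, Myh8 in WT 20 and Pax7 in WT 23.

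Long and short transcripts of the same fibres were compared as a check on the RNA. The log2 ratio of Ttn to Acta1 reads was -3.04 in KO 12 and between -2.38 and -1.13 in the other 15 libraries that carried muscle. For Neb over Tnni2 it was -3.14 in KO 12 against -0.60 to 0.78, and for Ryr1 over Tnnt3 -4.48 against -2.83 to -1.18. KO 12 lay outside the range of the others in all 3 pairs. Over all tested genes, the Spearman correlation between counted length and the library's deviation from the median library was -0.476 in KO 12 and between -0.158 and 0.281 in the other 23. The highest Tnnt1 and Tnni1 values came from this same library, and the part of RNA quality in them was not tested.

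**Figure D5:**
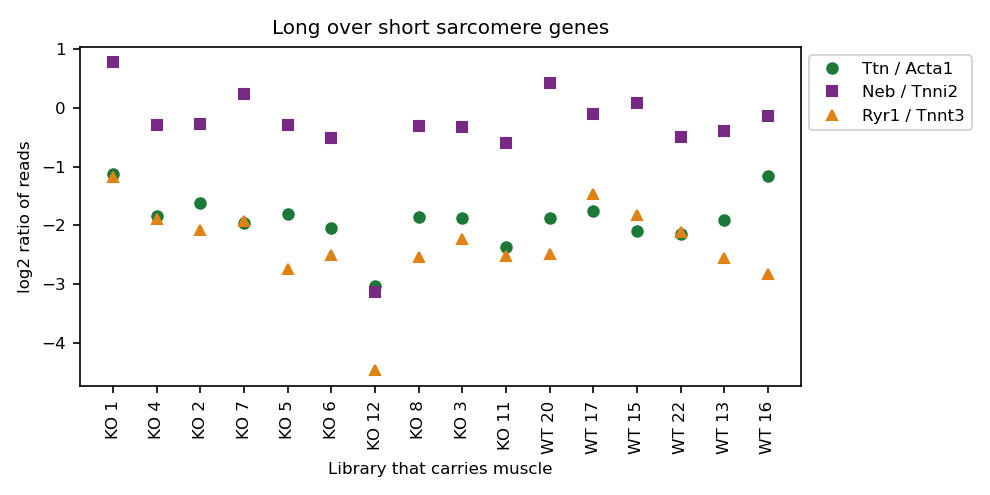
log2 ratio of reads of a long to a short sarcomere gene (Ttn over Acta1, Neb over Tnni2, Ryr1 over Tnnt3) in the 16 libraries that carry muscle, KO first. KO 12 has the lowest ratio for all 3 pairs, at -3.04, -3.14 and -4.48.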

How the data were processed

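The deposited values are whole-number read counts per gene, made with featureCounts 2.0.0 over exons of a RefSeq annotation of GRCm39, per the file headers. Those headers set no strand and no counting of reads placed more than once, although the kit is stranded per the labels' protocols. The submitters' processing notes also list STAR and Subread without a version. The authors' deposited table gives, for KO against WT, a log2 fold change, the mean log2 CPM, a signed fold, an F score and a p-value with its adjusted value.

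Libraries were scaled by TMM and genes filtered with filterByExpr. The main test was the quasi-likelihood F test of edgeR 4.0.16 under R 4.3.3, two-sided, with Benjamini-Hochberg adjustment over 15820 genes and a threshold of 0.05. Correlations and troponin ratios used two-sided permutation tests with 100000 resamples. Symbols came from the authors' deposited table for 28 of the 32 genes and from RefSeq for Mylpf, Tnnt1, Tnni1 and Tnnc1, and 2 marker symbols had no match. Other settings tried were upper-quartile and RLE scaling, limma 3.58.1 voom, DESeq2 1.42.0, robust dispersion, 2 other filters and leaving out libraries. The genes, marker lists and the rule for named genes (a fixed set of the 32 and the 8 genes most like Acta1) were chosen with earlier results of these data known. In simulated counts of this comparison over 15820 genes, edgeR found 60% of the genes changed 1.5-fold, 74% at 2-fold and 98% at 4-fold and at 8-fold, with 8 false calls. The changed genes were drawn from all tested genes. Real sarcomere genes varied more between libraries than most genes. Their median biological coefficient of variation, edgeR's measure of spread between libraries, was 1.42, against 0.25 over all tested genes. The simulated shares therefore do not give the recovery for sarcomere genes. Intervals cover counting error only.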

Additional observations from a re-analysis of the deposited data

How the results depend on the processing

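The count of sarcomere genes called was 0 under 31 of 32 alternatives and 1 (Mb) with DESeq2, and the count for the 56 other muscle genes was 0 under all 32. Over all genes the count, 50 as reported, was 418 with DESeq2, 31 without both KO 11 and KO 12 (an alternative chosen after seeing the data) and between 9 and 72 when each library was left out in turn. The cause was not tested. Asking 5 CPM of each gene left 5 libraries that carried muscle, where 1 CPM gave 16, because fewer genes pass a higher minimum. Of 973 alternatives for single sarcomere genes, 970 kept their direction and their side of the threshold. Mb passed it with DESeq2, and Tnni1, which lay between -0.12 and 0.86 when each library was left out, turned to -0.12 without KO 12 and to -0.14 without KO 11 and KO 12. The 3 troponin ratios stayed past no threshold under any of 25 alternatives each. No paired analysis was possible because replicate numbers run from 1 to 12 in one group and from 13 to 24 in the other. The fibre type of the 4 libraries with under 50 myosin reads was not read. Their totals, from 22168963 (WT 14) to 25204479 (WT 24) counted reads, were not the lowest. KO 12, with the lowest total (18789250), had 1104 myosin reads.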

Other observations

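WT 20 stood apart in other muscle genes. Myh8, the perinatal myosin heavy chain, was at 30.2 CPM there (834 reads), and the next library, WT 22, was at 1.21 CPM. Myl3, a slow and ventricular light chain, was at 5.002 CPM in WT 20, and the next library, KO 11, was at 0.88 CPM. The same library held Sbpl at 610 CPM, with 0 reads in the other 23, a gene singled out after its values were seen. WT 20 is also the muscle-carrying library with the lowest share of Myh4 and a Pvalb level of 0.87 CPM. The edgeR log2 difference of Myh8 between the labels, -4.14 ± 1.29 (SE; adjusted p = 0.128), comes from a total of 940 reads, of which 834 are in that library.

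WT 15 had the highest levels of several genes of new or regenerating fibres, all low. The embryonic myosin Myh3 was at 1.09 CPM (28 reads, next library 0.22 CPM) and the differentiation factor Myog at 1.01 CPM (26 reads, next library 0.44 CPM). Myod1, a muscle determination factor, was highest in KO 11, at 2.22 CPM, and the next library was at 0.21 CPM. Pax7, a marker of muscle stem cells, was highest in WT 23, at 2.58 CPM, which carried no muscle by the rule, and the next library was at 0.30 CPM. Krt10, a keratin of the upper skin layers, was at 137 CPM in KO 1, the library with the largest Myh7 share, and the next library was at 14.9 CPM.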
